A study of Mus musculus with 4 samples.

Results

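The Igf2r and Airn locus is an imprinted domain on mouse chromosome 17. It was followed here through the rows of the RNA tables named Igf2r, Airn, Slc22a2 and Slc22a3, which are 4 of 46320 gene identifiers. It was also followed through the regions of allelic DNA methylation listed on chromosome 17 between 12.4 and 12.9 Mb. That window held 1 of the 1600 listed regions with levels for both alleles. RNA-seq and MethylC-seq, which maps methylated cytosines by bisulfite sequencing, were made from adult prefrontal cortex, with 2 libraries per assay. All libraries came from female mice of 14 weeks with the strain label C57BL6J/Spretus, and all carried a mutation of the noncoding RNA Xist on the maternal allele, so no library was free of it. The material of each assay was pooled from 2 individuals of separate litters, and the 2 MethylC libraries were separate amplifications of the same converted DNA. Nothing in the labels says that the RNA libraries came from different animals, and p-values here speak of the spread from library to library, which can be technical.

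The comparison is between the alleles of the same tissue. With the mother named first in the strain label, as it was read here, Spretus is the paternal and C57 the maternal allele. All libraries carried that label and none came from the reverse cross, so the parent and the strain of an allele cannot be told apart. An X chromosome with mutant Xist stays active, and Spretus supplied 3.38% of the X-linked reads of library 1 and 3.65% of those of library 2, so the active X chromosome was that of C57. The Spretus share of autosomal reads was 47.9% and 48.0%. Allele-assigned reads numbered 4768237 in RNA library 1 and 1291903 in RNA library 2, so the first was 3.69-fold deeper. For the methylation levels the depth is unknown.

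Genomic imprinting is the expression of a gene according to the parent it came from. In mouse tissues, Airn is a noncoding RNA made from the paternal chromosome only, from a promoter inside Igf2r whose maternal copy carries DNA methylation set in the oocyte. Its transcription runs against Igf2r and silences the paternal Igf2r promoter, and in the placenta it also silences Slc22a2 and Slc22a3 at a distance. Igf2r encodes the cation-independent mannose 6-phosphate receptor, which carries acid hydrolases to lysosomes and takes up insulin-like growth factor 2 for degradation. In cultured mouse neurons Igf2r is known to be made from both parental copies, while cultured glial cells make Airn and keep Igf2r maternal.

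The locus runs from Slc22a3 through Slc22a2 and Igf2r to Airn in increasing coordinates. In the mm10 coordinates of the deposited tables, Igf2r (ENSMUSG00000023830.12) lay at 12682406 to 12769664 and Airn (ENSMUSG00000078247.3) at 12741311 to 12860122. The RefSeq table places Igf2r on the minus strand and Airn on the plus strand. The genes overlapped by 28.4 kb, which was 23.9% of Airn and 32.5% of Igf2r. At its other end Airn overlapped 19044 bases of the minus-strand gene Mas1, an angiotensin fragment receptor, which was 16.0% of Airn and 70.4% of Mas1. Slc22a2, an organic cation transporter on the plus strand, lay at 12584189 to 12628465. Slc22a3, a low-affinity monoamine and organic cation transporter on the minus strand, lay at 12419972 to 12507704. Whether counting used strand is not given in the sources used here. Reads from Airn and from exons of Igf2r or Mas1 under it therefore cannot be told apart.

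**Figure D1:**
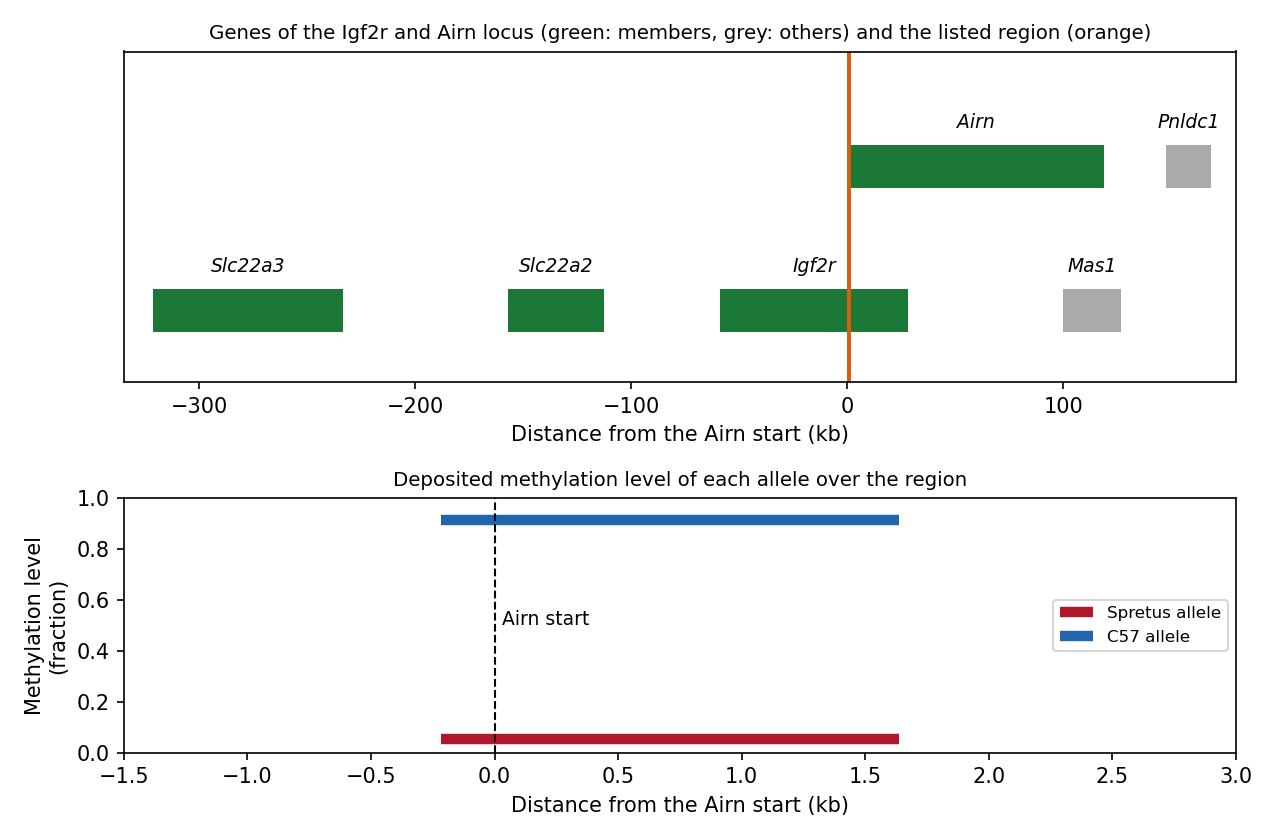
Upper panel, genes of the window on chromosome 17 drawn to scale as distance in kb from the start of Airn, with the members in green, other named genes in grey and the listed region in orange. The rows only keep overlapping genes apart and do not show strand. Lower panel, the deposited methylation level (fraction) of each allele, 0.0523 on Spretus and 0.916 on C57. It is drawn as 1 value over the whole region, which spans the Airn start.

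The sequences around the 2 opposed starts show how unlike they are. Both are from RefSeq, build GRCm38.p6, written 5′ to 3′ in the direction of transcription from 250 bases before to 50 bases after the gene's start, with each CG in capitals. CG is the pair of bases at which most methylation of mammalian DNA is found. The Airn window is chr17:12741061-12741360 on the plus strand, and the Igf2r window is chr17:12769657-12769956 on the minus strand.
Airn: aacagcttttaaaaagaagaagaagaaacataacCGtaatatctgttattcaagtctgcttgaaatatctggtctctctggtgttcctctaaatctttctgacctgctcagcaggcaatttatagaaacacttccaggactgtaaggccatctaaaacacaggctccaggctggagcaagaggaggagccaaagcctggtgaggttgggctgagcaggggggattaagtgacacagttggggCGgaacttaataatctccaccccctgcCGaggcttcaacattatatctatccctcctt
Igf2r: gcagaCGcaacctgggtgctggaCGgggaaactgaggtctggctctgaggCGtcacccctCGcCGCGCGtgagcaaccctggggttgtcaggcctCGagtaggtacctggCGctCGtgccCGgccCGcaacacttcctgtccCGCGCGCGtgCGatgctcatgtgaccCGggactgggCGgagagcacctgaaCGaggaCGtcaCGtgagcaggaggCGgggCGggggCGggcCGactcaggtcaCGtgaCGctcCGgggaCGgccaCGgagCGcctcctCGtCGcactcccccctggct
The Igf2r window held 34 CG and was 70.7% G or C, and 92.3% of 32851 RefSeq promoter windows of the same length held fewer CG. The Airn window held 3 CG and was 45.7% G or C, and 23.3% of windows held fewer. The windows of Slc22a2 and Slc22a3 held 8 and 5 CG, around the median of 7. The letters TGCCGC, the core of the motif of the imprint-keeping zinc finger protein ZFP57, were searched on both strands (GCGGCA on the other). They were in the Slc22a2 window and in none of the other 3 member windows, against 11.6% of all windows. Sequence outside these windows was not searched.

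The listed region of allelic methylation covered the start of Airn. It ran from 12741096 to 12742949 on chromosome 17, from 215 bases before that start to 1638 bases after it, and so held 265 of the 300 bases of the Airn window printed above. Most of its 1853 bases lay beyond that window, so the CG count and the motif search above do not describe the region. It lay inside the Igf2r gene and ended 26757 bases from the Igf2r start, whose own window held 0 bases of it. The methylation level, a fraction from 0 to 1, was 0.0523 on the Spretus allele and 0.916 on the C57 allele, a Spretus minus C57 difference of -0.86. Over the whole region, which spans the start of Airn, the paternal copy was thus mostly unmethylated and the maternal copy mostly methylated. The level at the start itself is not given. The authors' list gives 1 level per allele with no replicate, cytosine context or coverage, so no error can be given.

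The region stood alone on its stretch of chromosome 17. The next listed region toward lower coordinates was 6.85 Mb away, covered 20 bases and had levels of 0.907 on Spretus and 0 on C57. The next toward higher coordinates was 565.1 kb away, covered 4 bases and had levels of 0 on Spretus and 0.872 on C57. No listed region lay within 2 kb of Slc22a2, Slc22a3 or any of 14 neighbouring genes from Qk to Sod2. For places outside the list the level is unknown.

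At 1853 bases the region was long for the list, whose autosomal median was 76.5 bases. Of 1006 autosomal regions, 10 were longer and 360 had a larger difference between the alleles. There were 29 autosomal regions of at least 1 kb, of which 19 were higher on C57. Over those 19, the locus included, the Spretus level had a median of 0.0523 (range 0 to 0.667) and the C57 level a median of 0.912 (range 0.593 to 0.972). Among them, 9 had a lower Spretus level and 11 a lower C57 level than the region at Airn. That puts the region at Airn in the middle of the long regions higher on C57. Of the other listed paternally expressed noncoding RNAs, Kcnq1ot1 and Peg13 had C57-higher regions only. The levels were 0.0191 on Spretus and 0.936 on C57 at Kcnq1ot1, which silences its neighbours as Airn does. At Peg13 they were 0.0683 on Spretus and 0.960 on C57. Mcts2, a protein-coding retrogene kept in the same list, had 0.140 on Spretus and 0.897 on C57. Nespas had regions in both directions, the longest of them at 0.908 on Spretus and 0.00588 on C57.

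**Figure D2:**
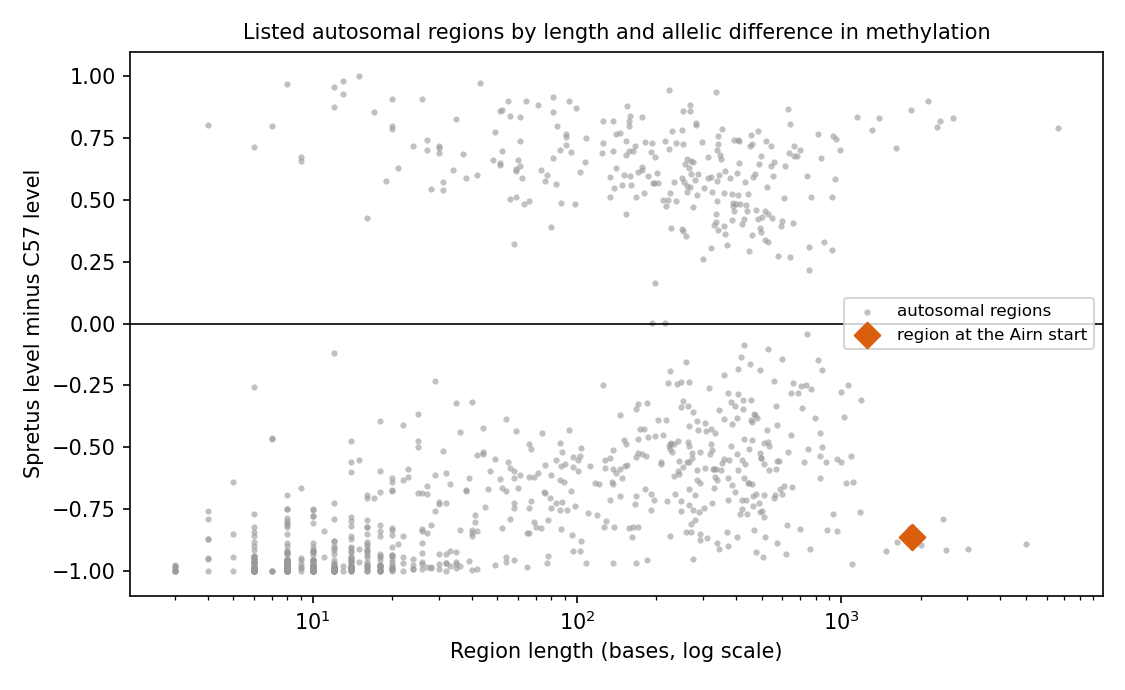
Length in bases (log axis) against the Spretus minus C57 difference in methylation level for the 1006 autosomal regions, 1 point per region, with the region at Airn marked. It is among the long regions, at 1853 bases and a difference of -0.86.

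Airn reads came from Spretus only. Library 1 had 19 Spretus and 0 C57 reads, and library 2 had 5 Spretus and 0 C57 reads. The Spretus share was 100% in both libraries, with exact Clopper-Pearson 95% lower limits of 82.4% and 47.8%, and of 85.8% for the 24 reads together. A cruder bound, a floor of 3 reads over the count, puts the C57 share at up to 15.8% in library 1, 60.0% in library 2 and 12.5% over both. It differs in kind from the exact limits, which are the ones to read at counts as low as 5. The intervals and floors cover counting error only. Among 12954 autosomal genes with at least 5 reads in each library and 24 in all, a threshold set from Airn after its counts were seen, 27 including Airn had 0 C57 reads and 29 had 0 Spretus reads.

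Igf2r reads came from both alleles, with somewhat more from C57. Library 1 had 237 Spretus and 322 C57 reads, a Spretus share of 42.4% (Clopper-Pearson 95% interval 38.3% to 46.6%). Library 2 had 60 Spretus and 65 C57 reads, a share of 48.0% (39.0% to 57.1%). The share averaged 45.2% ± 3.96 (SD, n = 2), and it was 43.4% (39.7% to 47.2%) for the 297 Spretus and 387 C57 reads together. In each library C57 had more reads than Spretus, by a margin whose counting interval left out 50% in library 1 and held it in library 2.

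The mean Igf2r share lay between the quartiles of the other genes. The median share over 11584 autosomal genes tested was 48.1%, with quartiles of 43.9% and 51.8%, and 31.3% of these genes had a lower mean share than Igf2r. The quartiles are of mean shares, which weight both libraries alike. The Igf2r share in library 1, 42.4%, and in the reads together, 43.4%, lay below the lower quartile. In edgeR's quasi-likelihood test the log2 ratio of Spretus over C57 was -0.20 (SE 0.17, 95% interval -0.57 to 0.18), and the Benjamini-Hochberg adjusted p was 0.652. The point estimate corresponds to 1.15-fold more from C57, and the end of the interval to 1.48-fold more, so the interval leaves out an excess of C57 above that size. That interval is from the fit with allele as the only term, which does not pair the alleles of a library. Igf2r was the 1 member with the 10 reads per library needed for the test, and 0 of 1 was called (unadjusted p = 0.272, and 0 of 1 with DESeq2), where edgeR called 5.43% of autosomal genes and DESeq2 2.2%. With the library as a block, which pairs the alleles of a library, the edgeR log2 ratio was -0.25 (SE 0.10). The unadjusted p of that edgeR test was 0.0246 and the adjusted p 0.0850. Igf2r was thus again not called, where 22.5% of autosomal genes were called.

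The allelic shares of Igf2r and Airn were far apart in the deeper library. There the upper limit of Igf2r, 46.6%, lay below the lower limit of Airn, 82.4%. In library 2 the interval of Igf2r, 39.0% to 57.1%, overlapped that of Airn, whose lower limit was 47.8% on 5 reads. The genes whose shares were nearest to those of Igf2r over the 2 libraries, among genes with at least 100 reads, were Pcdh17 (42.5% and 48.1%), Prdm4 (42.2% and 47.9%) and Nek9 (42.2% and 47.9%). The larger of the differences over the libraries was 0.148, 0.175 and 0.206 percentage points.

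The transporter genes gave too few reads for a call. In library 1 Slc22a3 had 22 Spretus and 14 C57 reads, and in library 2 it had 4 Spretus and 1 C57 read, shares of 61.1% (43.5% to 76.9%) and 80.0% (28.4% to 99.5%). The mean was 70.6% ± 13.4 (SD, n = 2), and the reads together gave 63.4% (46.9% to 77.9%). In library 1 Slc22a2 had 3 Spretus and 6 C57 reads, and in library 2 it had 1 Spretus and 3 C57 reads, shares of 33.3% (7.49% to 70.1%) and 25.0% (0.631% to 80.6%), with a mean of 29.2% ± 5.89. Slc22a3 had more Spretus reads and Slc22a2 more C57 reads in both libraries, but all 4 intervals held 50%, so a difference from equal use was not detectable at this depth.

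With the filter on low counts lifted, so that all 4 members entered edgeR's quasi-likelihood test, 1 of 4 was called, where 5.84% of 22103 autosomal genes were called. That gene was Airn, toward Spretus, with a Benjamini-Hochberg adjusted p of 6.4e-06, or 2.6e-05 with the library as a block. In that direction 2.71% of autosomal genes were called. In the same edgeR fit the log2 ratio was 0.94 for Slc22a3 (SE 0.53, adjusted p = 0.404) and -1.0 for Slc22a2 (SE 0.98, adjusted p = 0.723), neither called.

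**Figure D3:**
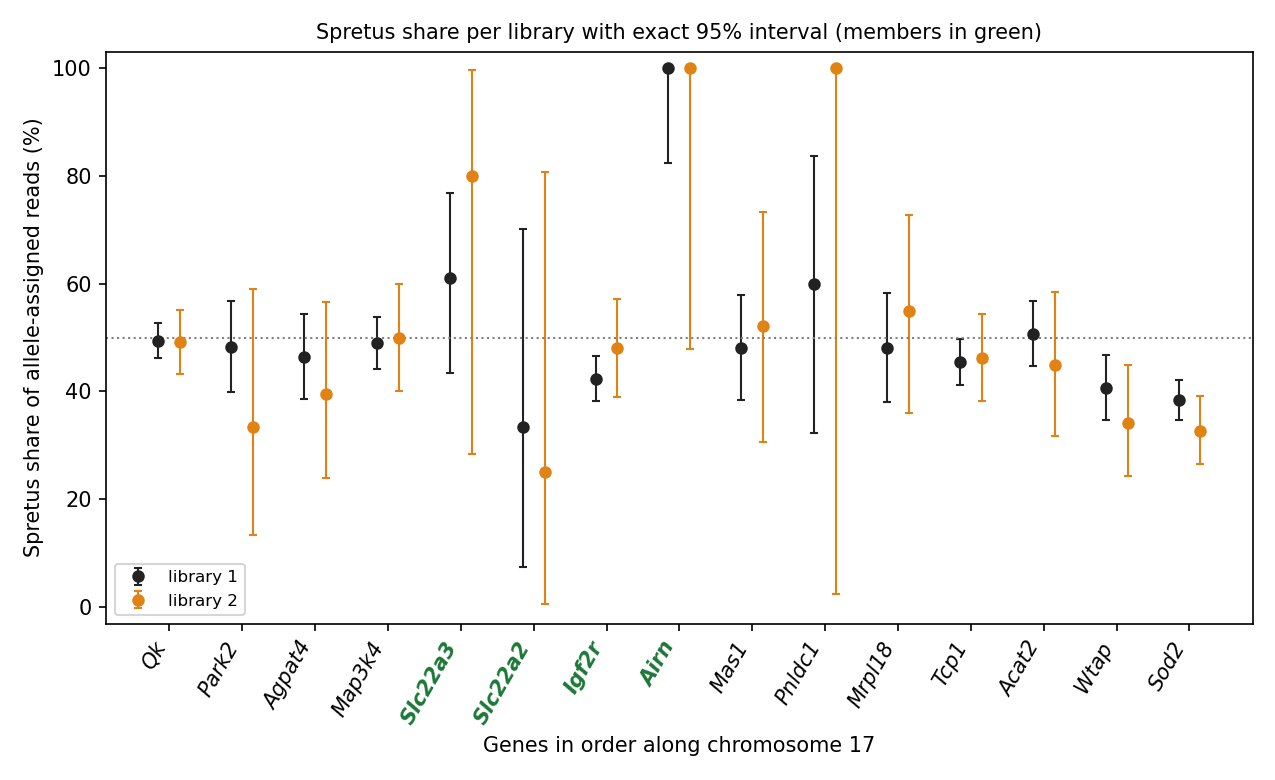
Spretus share of allele-assigned reads in percent for the members (green names) and the neighbours named in the text that had reads, in order along chromosome 17, with 1 point per library, exact Clopper-Pearson 95% intervals as bars and a dotted line at 50%. Airn sits at 100% in both libraries, the Igf2r points lie at 42.4% and 48.0%, and the wide bars of Slc22a2 and Slc22a3 cross the line.

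By total level, Igf2r stood well above the other members. Levels are the deposited FPKM, by definition fragments scaled by gene length and library size, for both alleles together. Over 21293 genes the median ratio of library 1 over library 2 was 5.68, so FPKM were not on a common scale between the libraries. Igf2r was at 9.21 FPKM in library 1 and 1.33 in library 2, and Airn at 1.18 and 0.195. Slc22a3 was at 0.561 and 0.0845 FPKM, and Slc22a2 at 0.201 and 0.0584. The order Igf2r, Airn, Slc22a3, Slc22a2 held in both libraries.

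Within a library, the FPKM of Igf2r was 7.81 and 6.81 times that of Airn in libraries 1 and 2. Whether such ratios of FPKM hold for the amount of RNA, with reads in introns counted, was not tested. Airn was 2.10 and 2.30 times Slc22a3, and Slc22a3 was 2.80 and 1.45 times Slc22a2. Over the libraries the levels were 5.27 ± 5.58 FPKM for Igf2r, 0.687 ± 0.697 for Airn, 0.323 ± 0.337 for Slc22a3 and 0.130 ± 0.101 for Slc22a2 (SD, n = 2). Those SDs include the general gap between the libraries, so they cannot tell whether the members differ. The order rests on the ratios within a library. By mean FPKM, Igf2r was above 71.8% of 25589 autosomal genes with a value above 0, Airn above 44.8%, Slc22a3 above 35.5% and Slc22a2 above 23.6%.

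All members had higher FPKM in library 1. The factor was 6.95 for Igf2r, 6.06 for Airn, 6.64 for Slc22a3 and 3.44 for Slc22a2, against a median of 5.68 over 21293 genes, so the gap between the libraries at the locus was close to that of the whole table except at Slc22a2, which had the fewest reads. In bulk tissue fewer cells of a type and less RNA per cell cannot be told apart, and neither can a share of 45.2% in every cell and a mixture of cells with different shares.

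**Figure D4:**
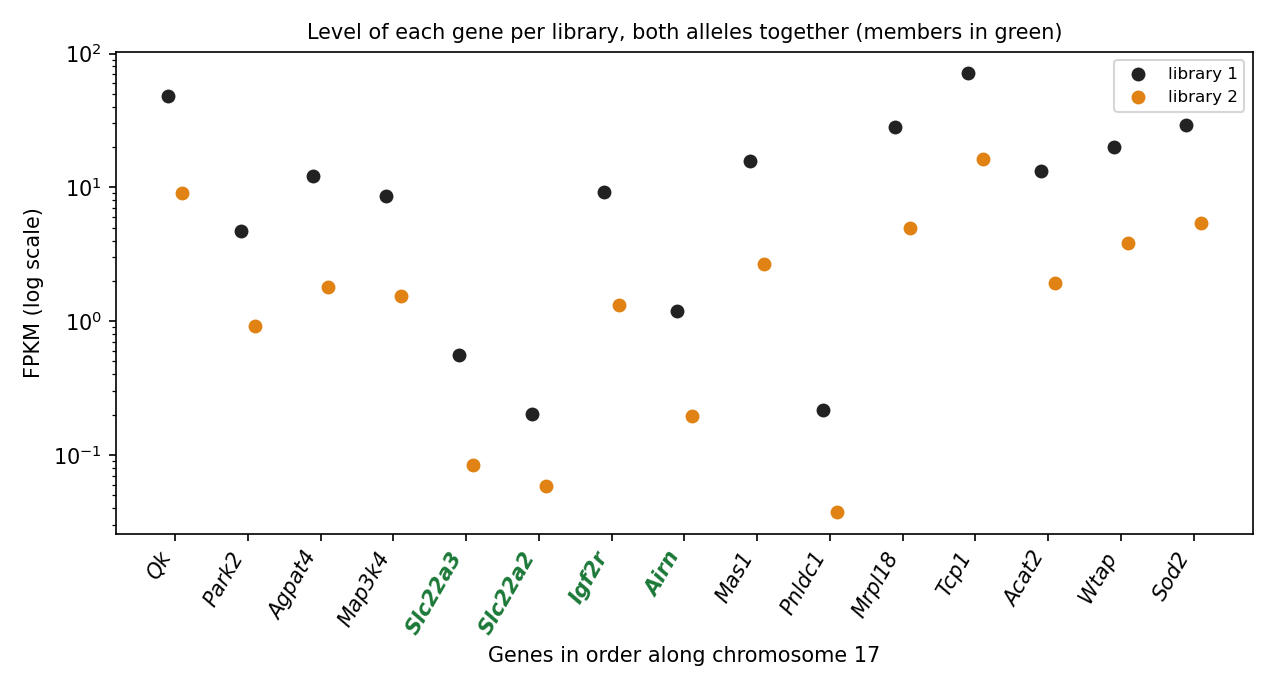
FPKM on a log axis for the members (green names) and the neighbours named in the text that had reads, in order along chromosome 17, 1 point per library. Among the members the order Igf2r, Airn, Slc22a3, Slc22a2 is the same in both libraries, with library 1 above library 2 for each gene.

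Marker genes were set against the tissue label. All 5 neuron markers found and all 6 astrocyte markers were at 1 FPKM or more in both libraries, as were 6 and 5 of 6 oligodendrocyte markers. A fixed cut of 1 FPKM is stricter in library 2, where FPKM were generally lower. The summed FPKM in libraries 1 and 2 was 2101 and 477 for neurons, 723 and 116 for astrocytes and 684 and 69.5 for oligodendrocytes. Scaled by the median ratio of all genes, library 2 had 1.29 times the general neuron marker sum of library 1, 0.884 times that of excitatory and 1.03 times that of inhibitory neurons. By the same scaling it had 0.913 times the astrocyte sum, 0.577 times the oligodendrocyte sum and 0.445 times the sum of blood markers. Markers of choroid plexus, a source of Igf2 in brain, summed to 2.56 and 1.17 FPKM, a scaled ratio of 2.60, with 1 and 0 of 4 at 1 FPKM. For library 2 the scaled ratio was 0.841 for oligodendrocyte precursors, 0.875 for microglia, 0.854 for endothelium and 1.20 for pericytes and meninges. The 3 neuron lists did not move one way. With 2 libraries any marker difference lines up with the Igf2r share in some direction, and the part of cell makeup in that share was not tested.

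The genes around the members were mostly near equal between the alleles. Of 14 neighbours found between Qk and Sod2, 11 were tested, 0 were called toward Spretus and 1 toward C57 in edgeR's quasi-likelihood test, where 2.39% and 3.04% of autosomal genes were called in those directions. Their median log2 ratio was -0.10, against 0.02 over all autosomal genes tested, and their mean shares ran between 35.5% and 51.4%. The called gene was Sod2, the mitochondrial superoxide dismutase, at the far end of the group.

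Sod2 had 268 Spretus against 430 C57 reads in library 1 and 74 against 153 in library 2, a share of 35.5% ± 4.10 (SD, n = 2). Its log2 ratio was -0.74 (SE 0.20, edgeR Benjamini-Hochberg adjusted p = 0.0452), and in DESeq2 the adjusted p was 0.226, so that call is lost there. Wtap, a subunit of the RNA methyltransferase complex that makes N6-methyladenosine, lies next to it and had a share of 37.4% ± 4.65. Its log2 ratio of -0.59 was not called (edgeR adjusted p = 0.181), but it was called toward C57 with the library as a block (adjusted p = 0.00625), which made 2 of 11, against 11.3% of autosomal genes toward C57.

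The neighbours described nearest to the members were Plg, Mas1 and Pnldc1, of which Mas1 had enough reads for the test and was not called. Plg, which encodes plasminogen and lies 587 bases from Slc22a3, was listed at 0 in both libraries. Mas1, under the end of Airn, had 52 Spretus against 56 C57 reads in library 1 and 12 against 11 in library 2, a share of 50.2% ± 2.85. Its levels of 15.7 and 2.69 FPKM were above those of Airn in both libraries. Pnldc1, beyond Mas1, had 9 Spretus against 6 C57 reads in library 1 and 1 against 0 in library 2.

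The tested neighbours farther out had shares of 42.9% ± 4.89 for Agpat4, a phospholipid acyltransferase, and 49.5% ± 0.738 for Map3k4, a stress kinase. On the other side, Mrpl18 stood at 51.4%, Tcp1, a chaperonin subunit, at 45.8% and Acat2, a thiolase, at 47.8%. Park2, which encodes the ubiquitin ligase parkin, stood at 40.8%, and Qk, a regulator of splicing in glia, at 49.3% ± 0.198. Inside Airn the tables listed 3 further identifiers with 1 allele-assigned read among them, a Spretus read of Gm16574.

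**Figure D5:**
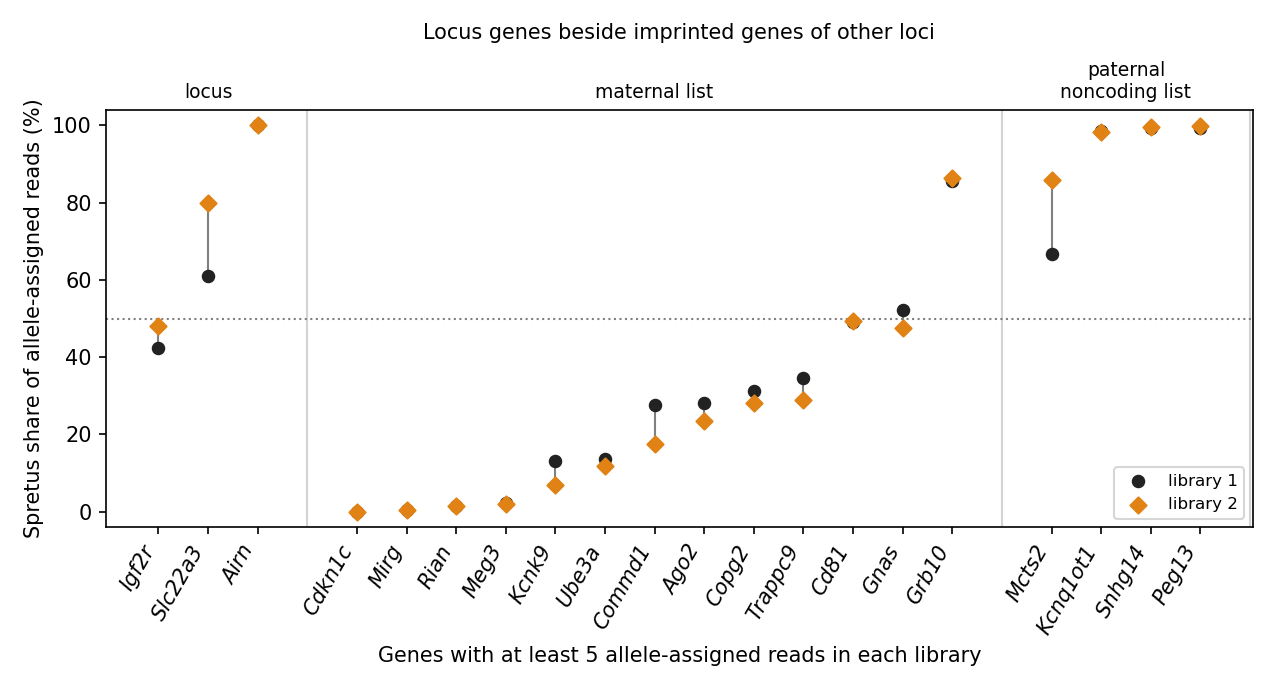
Spretus share of allele-assigned reads in percent, 1 point per library, for the members beside maternally expressed imprinted genes and paternally expressed noncoding RNAs, among genes with at least 5 reads in each library (Slc22a2 had fewer). Airn lies at 100% with the paternal noncoding RNAs, and Igf2r, at 42.4% and 48.0%, lies just under the dotted line at 50%, above the maternal genes called toward C57.

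Other imprinted genes gave the measure of what these libraries could show. Of 3 tested paternally expressed noncoding RNAs, 3 were called toward Spretus and 0 toward C57 in the edgeR test, where 2.39% and 3.04% of autosomal genes were. Kcnq1ot1 had a share of 98.4% ± 0.354, Snhg14, the transcript antisense to Ube3a, 99.4%, and Peg13 99.6%. Airn, with 24 reads in all, was at the same end of the scale. Of 12 tested genes listed as maternally expressed, 1 was called toward Spretus and 9 toward C57, where 2.39% and 3.04% of autosomal genes were. Grb10, an adaptor of the insulin receptor that mouse neurons are known to make from the paternal allele, was the one toward Spretus, at 86.0% ± 0.493. Those toward C57 were the noncoding RNAs Meg3, Rian and Mirg, the ubiquitin ligase gene Ube3a, the potassium channel gene Kcnk9, and Copg2, Trappc9, Ago2 and Commd1. Cd81 (49.1%) and Gnas (49.9%) were not called, and neither was Igf2r, which was kept out of that list. DESeq2 called 8 of the 12, without Copg2 (adjusted p = 0.0866) and Commd1 (adjusted p = 0.299).

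Partners of Igf2r in its roles were examined next, as lists chosen with earlier results of these data known. Of 24 tested genes of mannose 6-phosphate sorting and lysosomal hydrolases, 1 was called toward Spretus and 0 toward C57 in edgeR's quasi-likelihood test, where 2.39% and 3.04% of autosomal genes were, with a median log2 ratio of 0.06. With the library as a block, 4 were called toward Spretus and 2 toward C57, where 11.1% and 11.3% of autosomal genes were. The gene called in the fit without the block was Grn, which encodes the lysosomal protein progranulin, with 206 Spretus against 155 C57 reads in library 1 and 71 against 37 in library 2. Its share was 61.4% ± 6.14 and its log2 ratio 0.74 (SE 0.20, edgeR adjusted p = 0.0359). That call was lost with DESeq2 (adjusted p = 0.318), with 1 library total shared by both alleles (adjusted p = 0.106) and at 50 reads per library (adjusted p = 0.0957). M6pr, the cation-dependent mannose 6-phosphate receptor and the closest relative of Igf2r in function, had 188 Spretus against 158 C57 reads in library 1 and 65 against 48 in library 2. Its share of 55.9% ± 2.25 was not called by edgeR (adjusted p = 0.256), but was called with the block (adjusted p = 0.00919).

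In the insulin-like growth factor pathway, 0 of 13 tested genes were called toward Spretus and 2 toward C57, with and without the block, and the median log2 ratio was 0.02. Over all autosomal genes 3.04% were called toward C57 without the block and 11.3% with it. Igf2, the growth factor that Igf2r takes up, had 79 Spretus against 222 C57 reads in library 1 and 24 against 75 in library 2, a share of 25.2% ± 1.42. Its log2 ratio was -1.45 (SE 0.22, edgeR Benjamini-Hochberg adjusted p = 7.97e-04). Igfbp4, a binding protein that holds the growth factors outside cells, had a share of 32.9% ± 1.03 and a log2 ratio of -0.92 (SE 0.18, edgeR adjusted p = 0.00559), and its call was lost with DESeq2 (adjusted p = 0.138). The signalling receptors Igf1r, at 49.2% ± 5.76, and Insr, at 48.5%, were not called. The ligand Igf2 was called toward C57 and its clearance receptor Igf2r was not called, and the difference between the genes was not tested.

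Of 13 genes of organic cation and monoamine handling, the setting of Slc22a2 and Slc22a3, 6 could be tested. In edgeR's test 0 were called toward Spretus and 3 toward C57, namely the X-linked Maoa and Maob and the autosomal Slc47a1. The rates of 2.39% and 3.04% in those directions are of autosomal genes, so they do not apply to Maoa and Maob. The median log2 ratio of the 6 tested genes, -0.62, includes Maoa and Maob. Both break down monoamines, and their C57 copies lie on the active X chromosome. The autosomal gene was the exporter Slc47a1, with a share of 28.1% ± 2.30 and a log2 ratio of -1.19 (SE 0.30, edgeR adjusted p = 0.0299, DESeq2 adjusted p = 0.239).

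Of 14 tested genes that keep imprints or work in silencing by Airn, 0 were called in edgeR's quasi-likelihood test, near the 5.43% of autosomal genes called. At an unadjusted p under 0.05 there was 1, DESeq2 called 0, and the median log2 ratio was 0.00. The block added Hnrnpu, an RNA-binding protein of the nuclear matrix, toward C57 (adjusted p = 0.0169), where 22.5% of autosomal genes were called. The members with the most reads were Ehmt2, the histone H3 methyltransferase G9a recruited by Airn in mouse placenta, at a share of 46.9% ± 0.142, Dnmt3a, which sets new DNA methylation, at 52.1%, Trim28, the corepressor that ZFP57 recruits, at 52.5%, and Dnmt1, which copies methylation at replication, at 47.2%.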

How the data were processed

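The authors deposited, per the file headers, raw counts per gene of the reads of each allele in each RNA library, beside an FPKM value that joins the alleles. They also deposited a list of regions with each allele's methylation level as a fraction, 1 level per allele over the assay. Its name points to methylpy as the caller. Neither version, thresholds nor use of the 2 libraries is given in the sources used here. The build was mm10, and HTSeq 0.6.0, TopHat2 2.0.9, bedtools 2.2.4 and Cufflinks 2.1.1 are named without a role, per the submitters' processing notes. The kit marks strand and ribosomal RNA was removed, per the labels' protocols. The rule that assigns a read to an allele is not given in the sources used here. Few informative sites in a gene, or mapping that favours the build's own allele, could move a share. Of the 46320 identifiers, 49 with several loci and equal counts at each were used once. Of 1613 listed regions, 13 without levels were left out.

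Counts were tested with edgeR 4.0.16 in R 4.3.3 (glmQLFit and glmQLFTest, TMM scaling, allele as the only term, Spretus over C57). Genes entered at 10 or more allele-assigned reads per library, with Benjamini-Hochberg adjustment over all of them and a threshold of 0.05. Residual degrees of freedom were 2 and prior degrees of freedom 9.34. On simulated counts for 11981 genes, 54% of 2-fold and 97% of 4-fold changes were recovered, and 3.21% of calls were false. The simulated columns were independent, with 1 spread for all genes and no pairing by library. These rates may therefore differ from those of the real counts. Both alleles are read from 1 RNA sample, which pairs them by library in the design. Over 7565 genes with at least 200 reads their deviations had a correlation of 0.603. Shares have exact intervals from scipy 1.17.1. Alternatives were the block, DESeq2 1.42.0, other scalings, other filters, a pseudocount of 1 FPKM and leaving out each library. The unfiltered fit with the block was added after the data were seen.

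The members and lists were chosen with earlier results of these data known. Genes named were the 4 members, every neighbour except those not reported here, called genes of the other lists or up to 4 with the most reads, and the 3 genes nearest to Igf2r in share. The promoter table matched all 4 members.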

Additional observations from a re-analysis of the deposited data

How the results depend on the processing

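Igf2r was not called under any alternative run. Its log2 ratio of -0.20 lay between -0.32 and -0.0037 when each library was left out, values with no test, and its share between 42.4% and 48.0%. With the replicate block it was -0.25 (SE 0.10, adjusted p = 0.0850), with DESeq2 -0.18 and with 1 library total shared by both alleles -0.33 (adjusted p = 0.424), where the median of all genes moved to -0.11. The number of members called, 0, became 1 without the filter on low counts and 1 without that filter but with the block, because Airn could then be tested. The 629 autosomal genes called became 255 with DESeq2, 1290 without the filter, 165 at 50 reads per library, 2603 with the replicate block and 2774 with the block and no filter. Of the called genes 56.0% were toward C57, against 69.7% with the shared total, 50.4% with the block and 49.8% with upper-quartile scaling. The FPKM of Igf2r over Airn was 7.67-fold by the mean FPKM of each gene and 6.81 to 7.81 by library. It was 3.02-fold on the log2(FPKM + 1) scale, where the added 1 is larger than the 0.195 FPKM of Airn in library 2. Depth limits Airn to an upper bound on its C57 share, leaves Slc22a2 and Slc22a3 undecided, and gives the methylation levels no error.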

Other observations

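Other genes with reads from 1 allele only included Cr2, a complement receptor gene on chromosome 1, with 170 Spretus against 0 C57 reads in library 1 and 40 against 0 in library 2, and Themis, a T cell signalling gene on chromosome 10, with 99 Spretus against 0 C57 reads in library 1 and 26 against 0 in library 2. Both were chosen after their values were seen. Cdkn1c, a maternally expressed cell cycle inhibitor gene, showed the opposite pattern to Airn at a like depth, with 0 Spretus against 25 C57 reads in library 1 and 0 against 5 in library 2.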
